A study of Mus musculus with 8 samples.

Results

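Hox genes were followed in mesenchymal stromal cells from the inguinal fat pad of male FVB mice aged 12 months, measured as total RNA on biotin-labelled Affymetrix mouse arrays. The members were all probe sets whose single gene symbol consists of Hoxa, Hoxb, Hoxc or Hoxd and a number, which gave 33 genes of 19505 with a symbol. There were 4 shIRF7 arrays, whose cells carried the lentiviral plasmid pLKO.1 with a short hairpin against Irf7. The controls were 2 scramble arrays, with a scrambled hairpin in the same plasmid, and 2 empty vector arrays, with the plasmid alone, so every group had been infected. The labels name 1 hairpin against Irf7. They do not say whether replicates came from separate cultures, infections or animals, so the spread behind each p-value is that among these arrays and may be only technical.

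Hox genes encode homeodomain transcription factors and lie in 4 clusters, Hoxa to Hoxd. In the embryo their order along a cluster follows the order in which they are expressed from the head to the tail and along the limb, and genes with the same number in different clusters are paralogs of common origin. Adult fibroblasts and stromal cells keep much of the Hox pattern of the body region they came from, also in culture, and fat depots differ in it. Hox genes outside these 33 were not analysed here.

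Irf7, an interferon-response transcription factor and the target of the hairpin, measured 4.42, 5.66, 6.47 and 6.79 in shIRF7 replicates 1 to 4, against 9.56 and 9.76 in scramble and 9.55 and 9.61 in empty vector (log2 values; two-sided exact permutation test of 4 against 4 arrays, p = 0.0286, the smallest it allows; limma adjusted p = 0.0692). Of the mesenchymal stromal markers 10 of 14 measured exceeded the 95th percentile of the negative control probe sets on all 8 arrays, while 0 of 7 macrophage, 0 of 7 lymphocyte, 0 of 8 endothelial, 0 of 8 epithelial, 0 of 7 adipocyte, 0 of 8 skeletal muscle and 0 of 6 neural and Schwann cell markers did. Over all genes 28.6% did. Single markers of other cell types still exceeded it on some arrays, among them the following. The muscle marker Acta1 did so in shIRF7 replicates 1 (12.17) and 4 (9.50) and scramble replicate 1 (8.96). The adipocyte marker Fabp4 did so in shIRF7 replicate 1 (9.01), scramble replicates 1 (8.73) and 2 (8.97) and empty vector replicate 1 (8.16). Thy1, a stromal surface marker, measured 7.09, 4.87, 5.52 and 7.6 in shIRF7, against 8.97 and 7.59 in scramble and 9.54 and 7.6 in empty vector (limma adjusted p = 0.501). The arrays also differed in proliferation genes: the mean log2 value of 21 measured genes of DNA replication and mitosis was 12.3, 11.3, 11.4 and 12.0 in shIRF7 replicates 1 to 4, 10.9 and 12.9 in scramble replicates 1 and 2, and 8.86 and 12.9 in empty vector replicates 1 and 2.

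The members above the negative controls were few and lay in the middle and posterior parts of Hoxa, Hoxb and Hoxc. A value was called above the controls when it exceeded the 95th percentile of the 5222 negative control probe sets of its array, which lay between 7.93 and 8.72 on the log2 scale. By this rule 5 of 33 members (15.2%) were above on all 8 arrays, against 28.6% of all genes. They were Hoxc6, Hoxc8 and Hoxc10, with Hoxa10 and Hoxb7. Hoxc13 was above on 6 arrays and Hoxc9 on 4, and the other 26 members were above on none. By cluster, 3 of 9 Hoxc, 1 of 8 Hoxa, 1 of 9 Hoxb and 0 of 7 Hoxd members were above on all arrays, and the difference between clusters was not tested. By number, 0 of 8 members with numbers 1 to 4, 3 of 10 with numbers 5 to 8 and 2 of 15 with numbers 9 to 13 were. The count rests on the choice of percentile: with the 90th percentile it was 7, as Hoxc9 and Hoxc13 joined (35.8% of all genes), and with the 99th it was 0 (6.96% of all genes), with Hoxc6 above on 5 arrays. Because the arrays measure RNA of whole cultures, fewer expressing cells and less RNA per cell cannot be told apart.

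**Figure D1:**
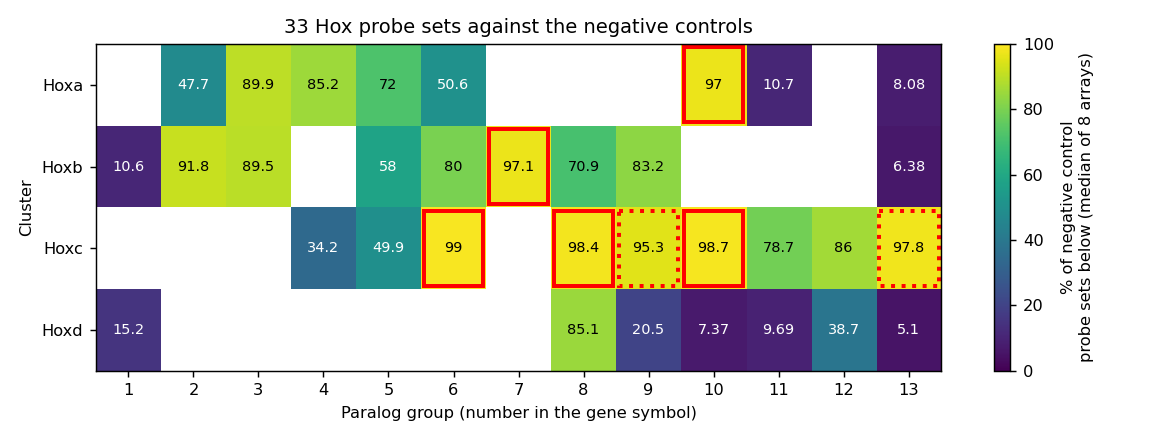
Each cell is a Hox gene, placed by cluster (rows) and paralog group (columns), and shows the median over 8 arrays of the percentage of negative control probe sets with a lower log2 value; white cells have no member. Solid red frames mark the 5 genes above the 95th percentile on all 8 arrays and dotted frames the 2 above it on some arrays, which lie in the row of Hoxc from group 6 to 13 and at Hoxa10 and Hoxb7.

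Hoxc6, which marks thoracic levels of the trunk in the mouse embryo, measured 11.60, 12.79, 12.64 and 12.50 in shIRF7 replicates 1 to 4, against 12.17 and 11.80 in scramble and 12.61 and 12.35 in empty vector. Hoxc8, a gene of thoracic and upper lumbar levels, measured 9.82, 10.61, 10.88 and 11.24 in shIRF7, against 10.91 and 10.78 in scramble and 10.20 and 10.88 in empty vector. Hoxc9, whose paralogs specify the rib-bearing thorax, measured 7.87, 9.15, 9.22 and 8.72 in shIRF7, against 8.59 and 8.45 in scramble and 7.65 and 8.16 in empty vector. The groups overlapped in these genes, and shIRF7 replicate 1 was the lowest shIRF7 array in each of them.

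Hoxc10, a gene of lumbar levels and the hindlimb, which is known to be more active in subcutaneous than in visceral fat, measured 10.99, 11.92, 11.62 and 11.80 in shIRF7, against 11.29 and 11.08 in scramble and 11.62 and 10.99 in empty vector. Here too shIRF7 replicate 1 was the lowest of its group. Hoxa10, its paralog in the Hoxa cluster, measured 9.41, 9.66, 9.83 and 10.16 in shIRF7, against 9.24 and 8.88 in scramble and 10.02 and 9.0 in empty vector. Hoxb7, the only Hoxb member above the negative controls on all arrays, measured 9.14, 9.60, 9.69 and 9.45 in shIRF7, against 9.40 and 9.02 in scramble and 9.34 and 9.35 in empty vector. Its 8 values spanned 0.67 on the log2 scale, where the median span was 0.76 over the members and 0.89 over all genes. In Hoxa10 and Hoxb7 too, replicate 1 was the lowest shIRF7 array.

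The posterior end of Hoxc varied most among the members. Hoxc13, which is known for its part in hair and nail formation, measured 10.91, 8.33, 8.39 and 9.76 in shIRF7 replicates 1 to 4, against 10.93 and 10.80 in scramble and 9.51 and 10.39 in empty vector. Replicates 2 and 3 of shIRF7 lay below every control and below the 95th percentile of their negative controls, while replicate 1 lay within the range of the controls. Hoxc12, the neighbour of Hoxc13 in the cluster, measured 7.19, 5.47, 5.61 and 6.04 in shIRF7, against 7.83 and 6.85 in scramble and 7.07 and 7.03 in empty vector. Here shIRF7 replicates 2, 3 and 4 lay below all controls and replicate 1 among them, and in both genes replicate 1 was the highest shIRF7 array. The spans over 8 arrays were 2.60 for Hoxc13 and 2.36 for Hoxc12. Hoxc11, the next gene in the cluster, spanned 0.50, with values from 5.71 to 5.90 in shIRF7 and from 5.76 to 6.21 in the controls.

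**Figure D2:**
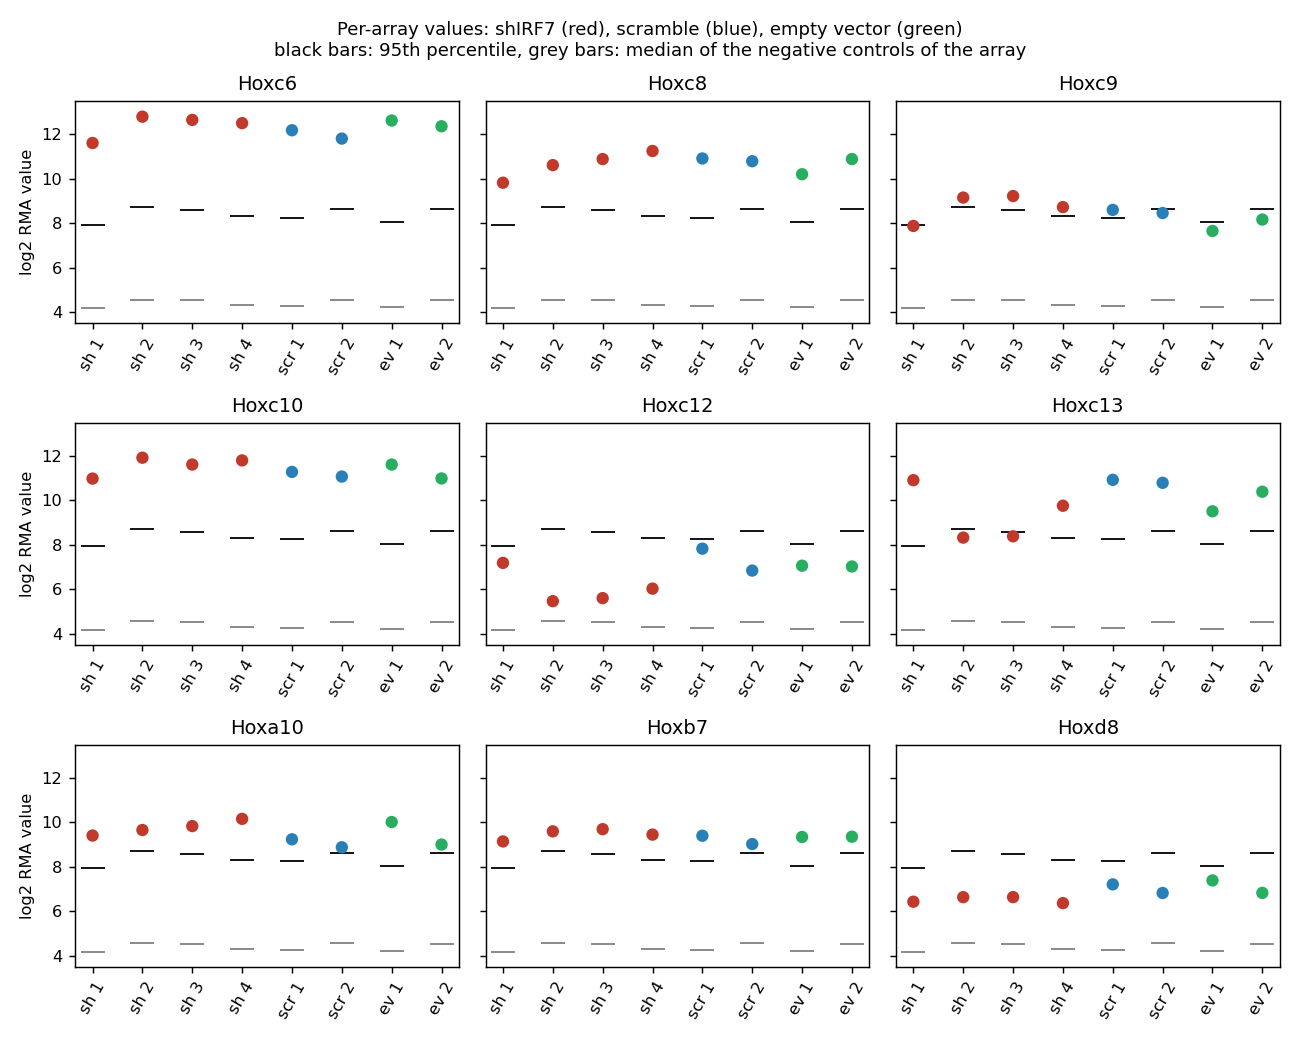
Log2 RMA values (y axis) of 9 Hox genes on each of the 8 arrays (x axis): shIRF7 replicates 1 to 4 (sh, red), scramble (scr, blue) and empty vector (ev, green), 1 point per array, with the 95th percentile (black bars) and median (grey bars) of the negative controls of that array. Hoxc12 and Hoxc13 are low in shIRF7 replicates 2 and 3 and at control level in replicate 1, and Hoxd8 is lower in all 4 shIRF7 arrays.

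The members not above the negative controls fell into several ranges. Among those with numbers 1 to 4, which act in the hindbrain, neck and upper trunk of the embryo, Hoxb2, Hoxa3, Hoxb3 and Hoxa4 exceeded a median of 91.8%, 89.9%, 89.5% and 85.2% of the negative control probe sets. Hoxa2, Hoxb1, Hoxc4 and Hoxd1 exceeded 47.7%, 10.6%, 34.2% and 15.2%, less than the middle of the negative controls. In the middle of the clusters Hoxb6, Hoxa5, Hoxb8, Hoxb5, Hoxa6 and Hoxc5 exceeded 80.0%, 72.0%, 70.9%, 58.0%, 50.6% and 49.9%. Hoxd8, the only Hoxd member above the median of the negative controls, exceeded 85.1%. The Hoxd genes with numbers 9 to 13, which pattern the distal limb and the genital bud, exceeded between 5.10% and 38.7%. Hoxa11 and Hoxa13, which act in the forearm and the hand and foot, exceeded 10.7% and 8.08%, and Hoxb13, a gene of the tail bud and prostate, exceeded 6.38%. For a probe set in this range the arrays give no evidence of transcript above background, and a low value does not show that the transcript was absent. Hoxb9, Hoxc11 and Hoxc12 exceeded 83.2%, 78.7% and 86.0%.

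Neighbouring genes could lie on opposite sides of that threshold, as Hoxa10 and Hoxa11 did. Hoxa11, the next gene towards the posterior end, measured 2.50, 2.92, 2.68 and 2.77 in shIRF7, against 3.03 and 3.26 in scramble and 2.77 and 3.31 in empty vector. Promoter windows of RefSeq (250 bases before to 50 after a transcript start) were available for 17 members. The windows of Hoxa10, the 1 member above the negative controls on all arrays that has an entry, and of Hoxa11 are shown 5′ to 3′, with CG dinucleotides, the site of DNA methylation, in capitals:
Hoxa10, first window (GRCm38.p6, chr6:52234890-52235189, minus strand): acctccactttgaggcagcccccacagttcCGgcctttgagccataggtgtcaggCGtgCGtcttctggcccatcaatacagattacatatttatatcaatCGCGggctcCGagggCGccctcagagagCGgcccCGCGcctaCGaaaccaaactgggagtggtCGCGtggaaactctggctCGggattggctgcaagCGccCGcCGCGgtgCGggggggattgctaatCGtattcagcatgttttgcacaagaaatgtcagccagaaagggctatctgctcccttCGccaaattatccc
Hoxa10, second window (GRCm38.p6, chr6:52240805-52241104, minus strand): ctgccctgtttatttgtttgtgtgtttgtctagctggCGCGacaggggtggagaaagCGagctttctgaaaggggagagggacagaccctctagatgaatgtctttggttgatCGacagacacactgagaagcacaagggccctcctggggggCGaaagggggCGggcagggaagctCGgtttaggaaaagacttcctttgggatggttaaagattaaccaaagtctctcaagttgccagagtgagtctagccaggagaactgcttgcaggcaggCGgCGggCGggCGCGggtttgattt
Hoxa11 (GRCm38.p6, chr6:52245761-52246060, minus strand): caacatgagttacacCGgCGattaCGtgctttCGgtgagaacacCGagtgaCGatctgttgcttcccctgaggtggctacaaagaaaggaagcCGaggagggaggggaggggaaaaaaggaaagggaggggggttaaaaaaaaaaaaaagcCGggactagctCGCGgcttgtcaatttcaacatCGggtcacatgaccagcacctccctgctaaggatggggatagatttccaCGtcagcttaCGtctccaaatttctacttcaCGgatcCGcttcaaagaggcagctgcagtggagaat
The Hoxa10 windows hold 21 and 12 CG dinucleotides and the Hoxa11 window holds 15, where the median is 20 over the 19 windows of members and 7 over all 32851 windows. The motif GAAA, any 2 bases, GAAA, the core of the element that interferon regulatory factors bind, was searched on both strands. It occurs in 0 of the 19 member windows, and 3.44% of all windows hold it. The motif TGATNNAT, the core of sites bound by Hox proteins together with Pbx partners, occurs on either strand in 4 of the 19 member windows (Hoxb8, Hoxb1, Hoxa2 and 1 window of Hoxd11) and in 8.85% of all windows. No member window holds both motifs, and the windows shown hold neither. These matches describe the letters of the windows only.

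With shIRF7 against both controls, 0 of 33 members passed the threshold (limma across all genes, adjusted p under 0.05), where 0.0308% of all genes passed. At an unadjusted p under 0.05 there were 4 members (12.1%), against 8.12% of all genes. The median difference was 0.07 over the members and 0.0017 over all genes, with 20 members positive and 13 negative. Of the members above the negative controls on all arrays, Hoxc6 averaged 12.38 ± 0.53 in shIRF7 and 12.24 ± 0.34 in the controls (SD, n = 4 each), a log2 difference of 0.14 with a 95% interval from -0.49 to 0.78. Hoxc8 differed by -0.06 (interval -0.79 to 0.68), Hoxc10 by 0.34 (-0.23 to 0.92), Hoxa10 by 0.48 (-0.14 to 1.09) and Hoxb7 by 0.19 (-0.21 to 0.59). These intervals leave room for differences of either sign, so the arrays do not show that the genes were alike in both groups. The sign of Hoxc8 depended on single arrays (0.22 without shIRF7 replicate 1 and 0.12 without empty vector replicate 2).

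The 4 members with an unadjusted p under 0.05 were Hoxd8, Hoxc12, Hoxa3 and Hoxa2, which were above the negative controls on no array. Hoxc13 and Hoxc9, above them on some arrays, are given as well. Hoxd8, a gene of trunk and limb levels, measured 6.43, 6.64, 6.64 and 6.37 in shIRF7, against 7.21 and 6.82 in scramble and 7.39 and 6.83 in empty vector. All 4 shIRF7 values lay below all 4 controls, which held for 1 of 33 members and for 2.8% of all genes. No member had all shIRF7 values above all controls, which held for 2.58% of all genes. The means of Hoxd8 were 6.52 ± 0.14 in shIRF7 and 7.06 ± 0.28 in the controls (SD, n = 4 each), and the log2 difference was -0.54 (SE 0.18, limma adjusted p = 0.489). Hoxc12 averaged 6.08 ± 0.78 in shIRF7 and 7.20 ± 0.44 in the controls (SD, n = 4 each), and differed by -1.12 (SE 0.41, limma adjusted p = 0.545). Hoxc13 averaged 9.35 ± 1.24 in shIRF7 and 10.41 ± 0.64 in the controls, a difference of -1.06 (SE 0.58, limma adjusted p = 0.719). Hoxa3 differed by 0.40 (SE 0.15, limma adjusted p = 0.575), with 7.37 to 7.52 in shIRF7 and 6.85 to 7.40 in the controls. Hoxa2 differed by 0.38 (SE 0.15, limma adjusted p = 0.592), and Hoxc9 differed by 0.53 (SE 0.31, limma adjusted p = 0.750).

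**Figure D3:**
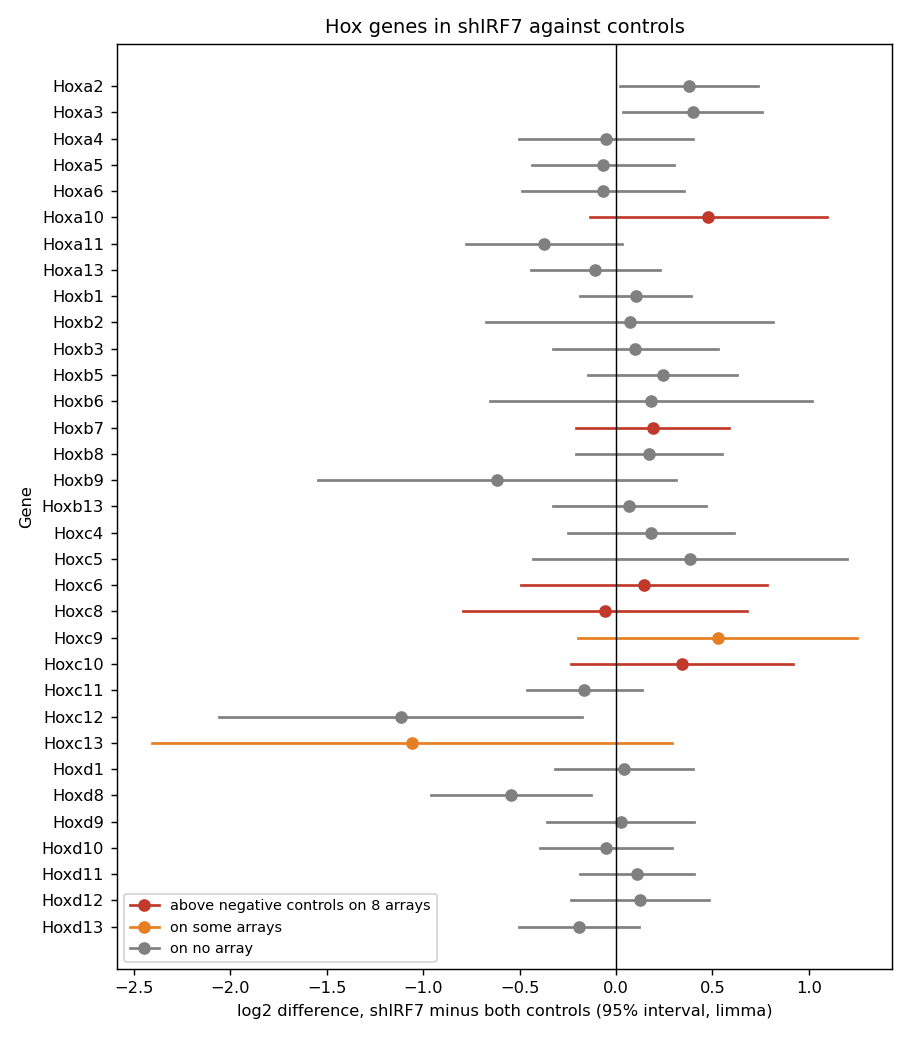
Log2 difference of shIRF7 minus both controls (x axis) with its 95% interval from limma for the 33 Hox genes (y axis, by cluster and number), coloured by how many arrays were above the negative controls. Hoxc12 and Hoxc13 have the most negative differences, at -1.12 and -1.06, with wide intervals, and 0 genes passed the adjusted threshold.

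Against each control alone 0 of 33 members passed as well (limma adjusted p under 0.05). In shIRF7 against scramble 0.00513% of all genes passed, and 2 members had an unadjusted p under 0.05, as 6.14% of all genes did. Hoxc12 differed by -1.26 (SE 0.50, limma adjusted p = 0.775), Hoxa3 by 0.46 (SE 0.19) and Hoxd8 by -0.50 (SE 0.22). In shIRF7 against empty vector 0% of all genes passed, and 2 members had an unadjusted p under 0.05, as 5.84% of all genes did. There Hoxd8 differed by -0.59 (SE 0.22, limma adjusted p = 0.768), Hoxa2 by 0.46 (SE 0.19) and Hoxc9 by 0.84 (SE 0.38). These comparisons share the shIRF7 arrays. In scramble against empty vector 0 members and 0% of all genes passed, and 1 member had an unadjusted p under 0.05, as 1.93% of all genes did. That was Hoxd10, which lay in the lower part of the negative controls, with a difference of -0.51 (SE 0.21, limma adjusted p = 1.00). Hoxa6 differed by -0.51 (SE 0.26) and Hoxc11 by 0.30 (SE 0.18). This fit had no term for the replicate number, so differences between control replicates entered its spread. A count of 0 in scramble against empty vector therefore does not show that both controls were alike. The shIRF7 comparisons come from the same fit, which counts scramble and empty vector of the same number as independent arrays. Deviations of these arrays from their group mean correlated at 0.757 over all genes. The standard errors, intervals and p-values, and the permutation test of Irf7, do not allow for that.

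Both controls of replicate 2 differed from both controls of replicate 1 in 4 of 33 members, all higher in replicate 2. In limma across all genes, with a term for the vector, 18.7% of genes passed, 10.3% higher and 8.34% lower, against 12.1% of members higher and 0 lower, so the members' share lies near that of all genes in the higher direction. At an unadjusted p under 0.05 there were 5 members, against 29.1% of all genes. Hoxb6, a gene of the trunk, measured 6.59 and 5.28 in scramble replicates 2 and 1 and 6.36 and 5.28 in empty vector replicates 2 and 1. The log2 difference was 1.19 (SE 0.25, limma adjusted p = 0.00299), with 1.31 in scramble and 1.08 in empty vector. Hoxb2, a hindbrain gene, differed by 1.02 (SE 0.27, limma adjusted p = 0.0129), with 0.64 in scramble and 1.41 in empty vector.

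Hoxb9, a paralog of Hoxc9, measured 7.33 and 7.02 in scramble replicates 2 and 1 and 7.35 and 5.26 in empty vector replicates 2 and 1. Its difference of 1.20 (SE 0.34, limma adjusted p = 0.0210) came to 0.31 in scramble and 2.09 in empty vector, so that empty vector replicate 1 stood apart. The adjusted p of Hoxb9 was 0.0688 with trend and robust fitting and 0.0633 with cyclic loess. Hoxc5 differed by 0.92 (SE 0.26, limma adjusted p = 0.0232), with 0.56 in scramble and 1.28 in empty vector, and measured 4.56 and 4.00 in scramble replicates 2 and 1 and 4.73 and 3.46 in empty vector replicates 2 and 1. These 4 genes were above the 95th percentile of the negative controls on none of the arrays. Among the members above it on all arrays, the smallest adjusted p was that of Hoxa10, which was lower in replicate 2 (-0.69, SE 0.26, limma adjusted p = 0.0861), with -0.36 in scramble and -1.01 in empty vector.

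Both replicate 2 controls lay above both replicate 1 controls in 8 members, against 26.6% of all genes, and below them in 6, against 29.8% of all genes. Proliferation genes moved with this comparison: 21 of 21 measured were higher in replicate 2 with a median difference of 2.81, led by Aurkb (4.20), Rrm2 (4.13) and Mcm5 (4.11). Their summed log2 value ran from 229 to 271 in scramble and from 186 to 270 in empty vector, and was lowest in empty vector replicate 1, as were Hoxb9, Hoxb2 and Hoxc5; the part of these genes in the result was not tested. The test has 1 residual degree of freedom before limma shares the spread across genes. With the shIRF7 arrays of replicates 1 and 2 added, 0 members passed, and 0 of all genes did. Since replicate numbers do not pair shIRF7 with the controls, that fit cannot decide whether the control replicates differ.

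**Figure D4:**
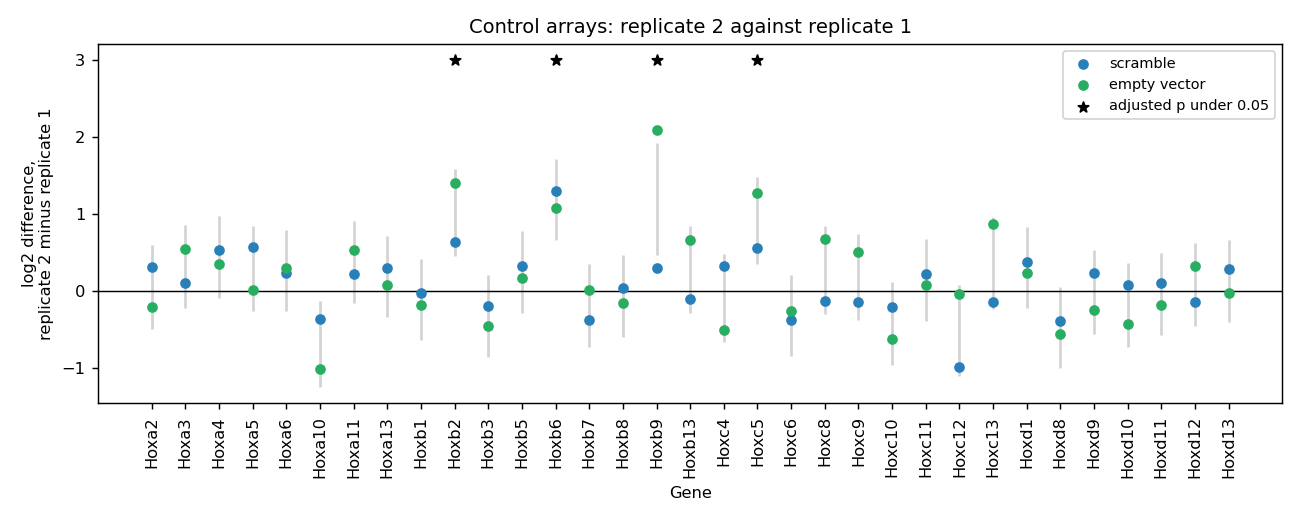
Log2 difference of replicate 2 minus replicate 1 (y axis) for each of the 33 Hox genes (x axis) in scramble (blue) and empty vector (green), with the 95% interval of the limma estimate over both (grey) and stars for adjusted p under 0.05. Hoxb2, Hoxb6, Hoxb9 and Hoxc5 carry stars, and for Hoxb9 the empty vector point at 2.09 lies far above the scramble point at 0.31.

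Genes that work with the Hox proteins or regulate their clusters were read from lists. In shIRF7 against both controls 0 members of any list passed, where 0.0308% of all genes did. Among the Pbx, Meis and Pknox cofactors, homeodomain proteins that bind DNA together with Hox proteins, 4 of 8 measured were above the negative controls on all arrays. Over all genes 28.6% were. Meis1 measured 10.81, 11.72, 11.48 and 11.97 in shIRF7, against 10.79 and 11.01 in scramble and 10.72 and 10.88 in empty vector (difference 0.64, limma adjusted p = 0.579). The median difference was 0.25 over the cofactors, -0.0041 over 28 Polycomb genes, which keep Hox genes silent, and -0.07 over 14 trithorax genes, which keep them active. The largest differences were 1.18 for the Polycomb-associated Phf19 and -0.42 for the methyltransferase gene Kmt2d (limma adjusted p = 0.709 and 0.862). Over 21 upstream genes of the Cdx and retinoic acid pathways the median was 0.03, and the largest difference was that of Crabp1, a retinoic acid binding protein, with 6.69, 11.81, 12.11 and 9.73 in shIRF7, against 7.12 and 5.63 in scramble and 8.52 and 8.0 in empty vector (limma adjusted p = 0.597). Replicates 2, 3 and 4 of shIRF7 lay above all controls and replicate 1 among them, the reverse of Hoxc12.

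Over 44 other positional transcription factors the median was -0.01, with the largest difference in Irx3 (-0.75, limma adjusted p = 0.758). Over 21 genes described as Hox targets it was -0.06, with the largest in the basement membrane gene Nid1 (-0.64, limma adjusted p = 0.271). Over 10 genes of Hox-binding proteins it was -0.13, with the largest in Maf (1.13, limma adjusted p = 0.793). Of 4 measured non-coding RNAs and Evx genes within the clusters 0 were above the negative controls on all arrays, against 28.6% of all genes. Hoxd3os1, an antisense RNA at Hoxd3, measured 3.98, 4.81, 5.11 and 4.94 in shIRF7, against 3.65 and 3.35 in scramble and 3.90 and 3.27 in empty vector (difference 1.17, SE 0.28, limma adjusted p = 0.299).

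In control replicate 2 against replicate 1 genes of most lists passed, where 18.7% of all genes did. Of the cofactors 2 rose and 0 fell, led by Pknox2 (0.82, limma adjusted p = 0.0381) and Pknox1 (0.78, limma adjusted p = 0.0421). Of the Polycomb genes 5 rose and 2 fell. Ezh2, the methyltransferase of Polycomb in dividing cells, rose by 1.36 and Phf19 by 2.21, while Ezh1, its counterpart in resting cells, fell by 1.78 on the log2 scale (limma adjusted p = 0.00156, 4.04e-05 and 0.000141). Of the trithorax genes 4 rose and 3 fell, with Paxip1 at 1.63, Kmt2c at -1.57 and the demethylase gene Kdm6b at -1.37. Of the upstream genes 0 rose and 5 fell, led by Aldh1a1, which makes retinoic acid (-3.02, limma adjusted p = 3.18e-06), Cyp26b1, which degrades it (-2.24, limma adjusted p = 0.00109), and the hindbrain regulator Egr2 (-2.17). Of the Hox-binding proteins 1 rose and 4 fell, with geminin (Gmnn), a replication licensing inhibitor, at 2.83, Btg2 at -2.76 and Maf at -1.73. Of the other positional factors 0 rose and 6 fell, including Irx3 (-1.67), Tbx3 (-1.39) and Twist1 (-0.94), and of the described targets 0 rose and 5 fell, including Epha4 (-1.95), Itga8 (-1.22) and Efna5 (-1.21). Of the stromal markers Cd44 rose by 1.35 and 3 fell, among them Thy1 by 1.66 and the matrix proteoglycan gene Dcn by 3.71 on the log2 scale. Dcn measured 7.62, 14.01, 14.06 and 13.68 in shIRF7 replicates 1 to 4, 8.05 and 10.10 in scramble replicates 2 and 1, and 10.47 and 15.84 in empty vector replicates 2 and 1, so replicate 1 of shIRF7 stood far below the other shIRF7 arrays. Of the endothelial markers 1 fell (Tek), of the adipocyte markers 1 fell (Slc2a4), of the neural markers 1 rose (Tubb3), and of the remaining marker lists and the genes within the clusters 0 passed. The median difference of all genes in this comparison was -0.04.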

How the data were processed

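RNA of 8 arrays was measured: 4 shIRF7, 2 scramble and 2 empty vector, grouped and numbered by their labels. The authors deposited log2 values. The submitters' processing notes name Expression Console 1.4.1.46 and RMA, a method that corrects background, normalizes between arrays and summarises probes. That the scale is log2 follows from the range of 1.66 to 18.9. RMA compresses low values, so differences of dim genes are understated. No source used here gives the genome build of the array design. The number of arrays limits the precision.

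Of 28846 probe sets, 19572 had 1 gene symbol, 0 several and 9274 none. All 19572 gene identifiers matched RefSeq (GRCm38.p6), used for current symbols, cluster order and promoters. For 55 genes with several probe sets the one of highest mean was kept, leaving 19505 genes; each Hox member has 1 probe set. No array column was left unused (0 columns). Levels of different probe sets were not compared, only each with the 5222 negative controls of its array.

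The model gave each group a mean over all 8 arrays (lmFit and eBayes of limma 3.58.1, under R 4.3.3); control replicates were fitted on the 4 control arrays with a vector term. P-values were adjusted by Benjamini-Hochberg over all genes at 0.05. SE is the moderated standard error. The fits were tested on simulated data with noise independent between arrays, which leaves out spread that control arrays of the same replicate number share. Every Hox gene was named, with values for those above the negative controls on all arrays, those above on some with a range over 1 log2 unit, and the 3 of smallest p in each comparison. Per list, up to 3 genes past the threshold were named or, with none past it, the gene of largest difference. Of 271 genes in 17 lists 235 matched by symbol and 36 did not. Members and lists were chosen with earlier results of these data known.

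Replicate numbers do not pair shIRF7 with the controls: over all genes, deviations from the group mean correlated at 0.757 between scramble and empty vector of the same number, but between -0.31 and -0.16 for shIRF7 with either control. Alternatives were a filter on dim genes, trend and robust fitting, cyclic loess, all probe sets, a replicate block, both controls as 1 group, other percentiles, replicates of all groups, and leaving out each array.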

Additional observations from a re-analysis of the deposited data

Results flagged for a closer look

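In 2 of 34 shIRF7 groups tested (33 members and Irf7), 1 array lay far from the other 3 for the range of the group. Chance flags about 1 group in 20. Hoxb8 measured 5.85 in shIRF7 replicate 3, against 5.32 to 5.39 in the other shIRF7 arrays and 5.23 to 5.43 in the controls. Hoxd1 measured 3.30 in shIRF7 replicate 1, against 3.00 to 3.03 in the others and 2.75 to 3.25 in the controls. Neither gene was above the 95th percentile of the negative controls on any array.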

How the results depend on the processing

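In shIRF7 against both controls and against each control, and in scramble against empty vector, the count of Hox members that passed was 0 under every alternative run: without each array in turn (0 to 0), with the dim genes left out, trend and robust fitting, cyclic loess, all probe sets, the replicate block and, for both controls, 1 pooled control group. With the replicate block 0 members had an unadjusted p under 0.05 in shIRF7 against both controls, and Hoxc6 turned to -0.042. Hoxc8 ranged from -0.26 to 0.22 without 1 array, and was positive when shIRF7 replicate 1 or (0.12) empty vector replicate 2 was left out. Irf7 kept its direction, and passed with pooled controls (-3.79, adjusted p = 0.0299) and without shIRF7 replicate 1 (-3.31); its values without 1 array ranged from -4.10 to -3.31. Over all genes the count of 6 in shIRF7 against both controls became 28 with pooled controls or without shIRF7 replicate 1, 3 with trend and robust fitting or without shIRF7 replicate 4, 2 without empty vector replicate 2, and 0 with the replicate block or without scramble replicate 1 or 2 or shIRF7 replicate 2 or 3. The count of 1 against scramble became 8 without shIRF7 replicate 1 and 0 with the dim genes left out, trend and robust fitting, the block or without either scramble array or shIRF7 replicate 2, 3 or 4. The count of 0 against empty vector became 3 without empty vector replicate 2, and 1 without empty vector replicate 1 or shIRF7 replicate 4.

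In control replicate 2 against replicate 1 the count of 4 members became 3 with trend and robust fitting or cyclic loess, and 0 with the dim genes left out, where none of the 4 was tested. It became 0 with shIRF7 replicates added, where the count over all genes became 0 against 3639 (1242 at an unadjusted p under 0.05). Leaving out 1 control array was not run there, since no residual degrees of freedom remain. The count of 5 members above the negative controls was 7 with the 90th percentile or with medians over arrays, and 0 with the 99th. A test of the shIRF7 difference between replicates 1 and 2, made after the data were seen, is not reported, since the numbers do not pair shIRF7 with the controls and each side holds 1 shIRF7 array. The causes of these changes were not tested. Members near the median of the negative controls cannot show a fall, and the number of arrays limits the rest.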
